A study of Mus musculus with 6 samples.

Results

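Chemokines are small secreted proteins that direct the movement of leukocytes, and chemokine receptors are the G protein-coupled receptors that sense them. They were taken here as all genes in the deposited counts whose symbol begins with Ccl, Cxcl, Cx3cl, Xcl, Ccr, Cxcr, Cx3cr, Xcr or Ackr followed by a number, with at most a final a or b, and with a count in at least 1 mouse. This gave 55 genes, 33 ligands and 22 receptors, of 18782 genes with any count. Another 4 matching symbols (Cxcl15, Cxcl17, Ccl26 and Ccl27b) had no count in any mouse. Relatives with other names, such as Pf4, Ppbp and Ccrl2, lay outside the rule and are given at the end.

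The tissue was thalamus lying under the hippocampus, dissected without sorting from a coronal slab of brain, from male wild-type C57BL/6J mice, 8 to 10 weeks old at purchase, 3 in each group, with RNA from each mouse sequenced in bulk. All 6 mice had received a single gamma-ray dose of 50 Gy to the left thalamic region and, 2 weeks later, 2 µL of an AAV9 virus, and the thalamus was collected at 6 weeks from irradiation. The RC mice received AAV9 GFAP104::tdTomato, which carries a red fluorescent protein, and the RN mice received AAV9 GFAP104::mND1-tdTomato, which also carries mouse NeuroD1, a neuronal transcription factor. The GFAP104 promoter is designed for astrocytes, and no unirradiated mice were analysed here. The question was which chemokine genes differed between irradiated thalamus given NeuroD1 and irradiated thalamus given the control virus.

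In the brain, fractalkine (Cx3cl1) is made by neurons and its receptor Cx3cr1 sits on microglia, while Cxcl12 signals through Cxcr4 and is scavenged by Ackr3. Inflammatory chemokines are induced in glia, vessels and infiltrating cells: Cxcl9 and Cxcl10 by interferon to attract Cxcr3-bearing T cells, Ccl2 and its relatives to attract Ccr2-bearing monocytes, and Cxcl1, Cxcl2 and Cxcl5 to attract Cxcr2-bearing neutrophils. The atypical receptors (Ackr) bind or scavenge chemokines without the usual G protein signal.

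Library totals lay between 16561663 and 18657015 counts, and a count of 0 allows up to 3 counts, which is 0.161 to 0.181 CPM (counts scaled to a common library total) before normalization and covers counting error only. Neurod1, which only the RN virus adds, gave counts of 84, 91 and 90 across RC1, RC2 and RC3 against 1123, 1711 and 910 across RN1, RN2 and RN3. Thalamic genes such as Tcf7l2 and Prkcd were present in every mouse, but the 10 listed had a median log2 ratio (RN over RC) of -0.539. Their summed level was 1581, 1133 and 2262 CPM across RC1, RC2 and RC3 and 1626, 1298 and 863.2 across RN1, RN2 and RN3. The summed level of 12 choroid plexus genes, however, ran from 325.8 to 8458 CPM in RC against 74.9 to 151.7 in RN, and that of 13 hypothalamic genes from 29.3 to 210.3 in RC against 271.1 to 443.7 in RN, so the content of the dissected tissue moved with the virus, and its part in the values below was not tested beyond a fit with a choroid plexus score. In bulk tissue, fewer cells of a type and less RNA per cell cannot be told apart. The labels do not say that the mice of a group came from separate cages or days, so p-values measure the spread between these libraries.

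RC replicate 1 stood apart from the other RC mice in chemokine genes. Of the 33 members that passed the filter on low counts, 11 were at least 2-fold above the mean of the other RC mice there (33.3%, against 2.52% of all 14956 tested genes). These were the ligands Cxcl9, Cxcl10, Ccl3, Ccl4, Ccl5, Ccl8 and Ccl22 and the receptors Cxcr3, Cxcr6, Ccr2 and Ccr7. RC replicates 2 and 3 had no such member, where 1.93% and 0.789% of all tested genes lay that far above the rest of their group. RN replicate 1 had 1 (Ccl3, background 0.863%), RN replicate 2 had 2 (Ccl11 and Ccl19, background 1.31%) and RN replicate 3 had 2 (Ackr2 among them, background 1.46%). Many lymphocyte genes moved with it: the summed level of 17 T cell and NK cell genes was 57.0 CPM in RC replicate 1 and 23.7 to 36.0 CPM in the other 5 mice. Not all of them did. Cd4 was highest in RN replicate 3 (13.6 CPM, against 3.48 in RC replicate 1), and Gzmb, Klrb1c and Ncr1 were highest in RN replicate 2. Of 7 B cell and plasma cell genes, the immunoglobulin genes Ighm (57.3 against 15.7 to 20.7 CPM) and Jchain (16.1 against 1.55 to 5.56 CPM) were also highest there, whereas the B cell receptor genes Cd79a and Cd79b were not. The T cell marker Cd3e gave counts of 30, 15 and 18 for RC against 9, 14 and 12 for RN. Cd3d gave 28, 1 and 7 against 6, 11 and 9, so its groups overlapped. No gene of either list was at 0 in all mice. The part of these cells in the chemokine values was not tested. Each comparison of a tested chemokine gene that rests on RC replicate 1 is given below with and without it.

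**Figure D1:**
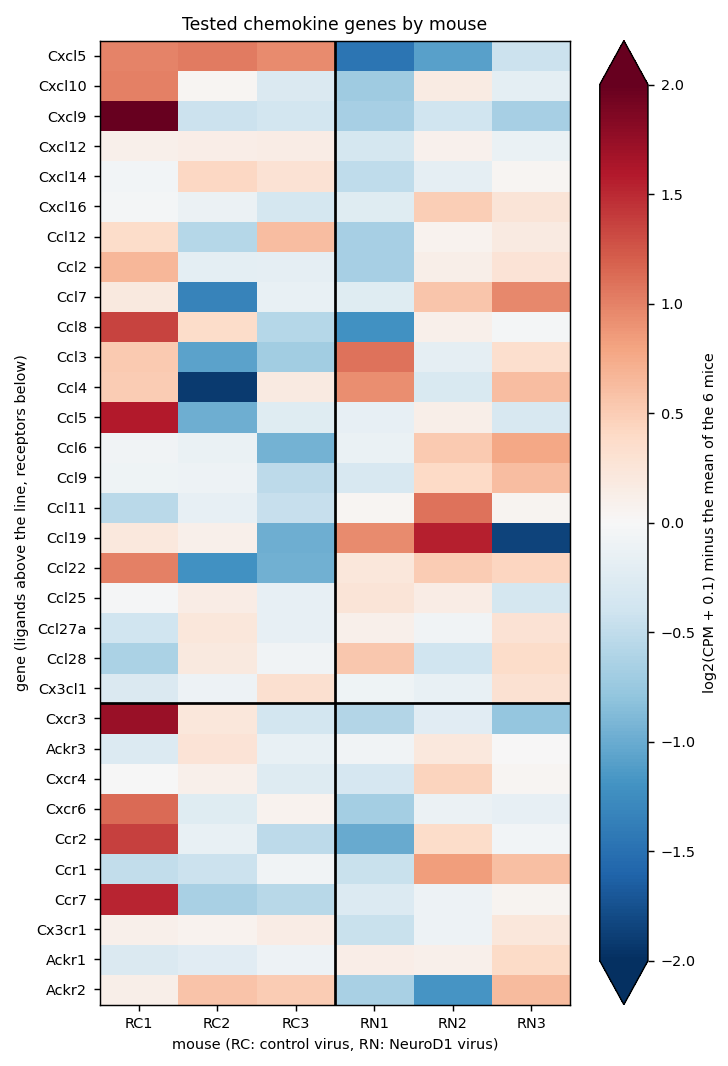
Heat map of 32 of the 33 tested chemokine genes (rows, ligands above the line and receptors below) in the 6 mice (columns). Colour gives log2(CPM + 0.1) minus the gene's mean over the 6 mice, cut at 2 in either direction, and the RC1 column is red for 11 genes that were at least 2-fold above the other RC mice, led by Cxcl9.

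The 3 ligands with the highest counts in RC replicate 1 among these 11 genes were Cxcl9, Cxcl10 and Ccl8, and their start regions are shown for that reason. They are the 250 bases before the start site from RefSeq (build GRCm38.p6), 5′ to 3′ on the gene's strand, with matches to 2 motifs in capitals. The motifs are a core of the interferon-stimulated response element, GAAA and a further GAAA with any 2 bases between them, and GGGNNTTCC, a form of the NF-kappaB site, searched on both strands, with letters settled after these sequences had been read. The Cxcl9 window lies at chr5:92328080-92328329 and the Cxcl10 window at chr5:92348890-92349139, both on the minus strand, and the Ccl8 window at chr11:82114935-82115184 on the plus strand.
Cxcl9: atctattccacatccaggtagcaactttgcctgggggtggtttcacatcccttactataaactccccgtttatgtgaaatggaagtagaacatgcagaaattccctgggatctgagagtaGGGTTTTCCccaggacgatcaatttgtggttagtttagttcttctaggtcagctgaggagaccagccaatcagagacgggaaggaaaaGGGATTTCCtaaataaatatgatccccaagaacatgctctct
Cxcl10: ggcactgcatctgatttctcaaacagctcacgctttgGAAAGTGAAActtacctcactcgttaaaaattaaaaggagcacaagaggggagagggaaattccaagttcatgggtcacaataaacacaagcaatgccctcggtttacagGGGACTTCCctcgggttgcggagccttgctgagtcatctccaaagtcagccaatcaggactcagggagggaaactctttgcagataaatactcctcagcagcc
Ccl8: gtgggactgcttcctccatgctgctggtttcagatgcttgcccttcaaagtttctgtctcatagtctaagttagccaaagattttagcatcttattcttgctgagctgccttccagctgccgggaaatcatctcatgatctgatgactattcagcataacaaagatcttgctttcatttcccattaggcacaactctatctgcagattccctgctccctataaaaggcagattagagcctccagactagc
Cxcl9 held 2 matches to the NF-kappaB form, starting 130 and 42 bases before the start site. Cxcl10 held 1 match to the interferon element, starting 213 bases before it, and 1 to the NF-kappaB form, starting 103 bases before it, and these matches did not overlap. Ccl8 held no match to either. A window was matched for 43 of the 55 members, 47 windows in all. The NF-kappaB form was in 17.0% of these windows against 4.98% of all 32851 promoter windows, and the interferon element in 6.38% against 2.98%. Because the letters were settled on the sequences shown, the member shares are partly built in, and without those 3 genes they were 13.6% and 4.55%. A match describes the letters and not a bound factor.

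No chemokine ligand or receptor passed an adjusted p under 0.05 with a fold change of at least 2 by the quasi-likelihood test of edgeR, adjusted after Benjamini and Hochberg, where 0.0735% of all tested genes passed, 0.0602% higher and 0.0134% lower in RN. At an unadjusted p under 0.05, 2 ligands were higher (Ccl11 and Ccl6) and 3 lower (Cxcl5, Cxcl9 and Cxcl14) in RN among the 22 tested, and 2 receptors were higher (Ackr1 and Ccr1) and 1 lower (Cxcr3) among the 11 tested. These 8 of 33 members stand beside 11.8% of all tested genes, of which 5.44% were higher and 6.33% lower. All RN mice lay on one side of all RC mice for 3 ligands (Cxcl5 and Cxcl12 lower, Ccl11 higher) and 1 receptor (Ackr1 higher), against 16.3% of all tested genes, 8.18% higher and 8.12% lower. A fold change of at least 2 was seen in 1 higher ligand (Ccl19), 2 lower ligands (Cxcl5 and Cxcl9) and 1 lower receptor (Cxcr3), against 1.43% higher and 1.75% lower of all tested genes. Of the ligands 9 of 22 and of the receptors 6 of 11 lay below 0 on the log2 scale, against 49.2% of all tested genes. The median log2 ratio of RN over RC was 0.13 for the ligands and -0.18 for the receptors, against 0.0037 for all tested genes. Without RC replicate 1 the receptor median was 0.16. The labels do not say that equal replicate numbers mark paired mice, so the number was fitted only as an alternative. With the replicate number as a block no receptor was lower at an unadjusted p under 0.05, in place of 1, and the ligands were Ccl11 and Ccl3 higher and Cxcl5, Cxcl12 and Cxcl14 lower, so that Ccl6 and Cxcl9 no longer passed, against 6.63% higher and 6.97% lower of all tested genes.

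**Figure D2:**
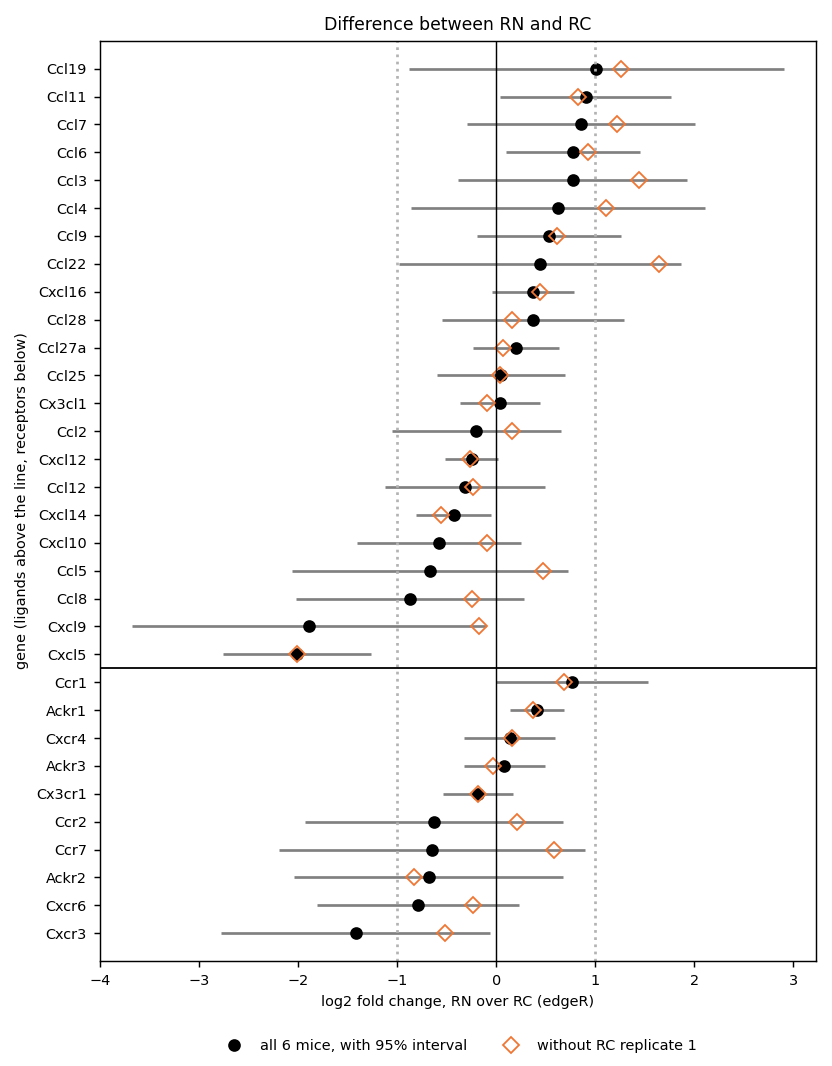
Log2 fold change (log2 ratio), RN over RC, of 32 of the 33 tested chemokine genes from edgeR (points) with its 95% interval (lines), ligands above the horizontal line and receptors below, and the value without RC replicate 1 (open diamonds); dotted lines mark a 2-fold change. Cxcl5 lies at -2.01 with and without that mouse, while the value of Cxcl9 moves from -1.89 to -0.17.

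Cxcl5 (ENSMUSG00000029371), a neutrophil-attracting ligand of Cxcr2, showed the largest difference of the 33. It gave counts of 78, 76 and 74 across RC1, RC2 and RC3 against 12, 18 and 28 across RN1, RN2 and RN3. The lowest RC mouse was thus above the highest RN mouse by a wide margin, and the RC mice were nearly equal. It averaged 4.38 ± 0.152 CPM for RC and 1.08 ± 0.438 for RN (mean ± SD over 3 mice), a log2 ratio of -2.01 with a 95% interval of -2.75 to -1.27. Its adjusted p was 0.0696 in edgeR's quasi-likelihood test. DESeq2's Wald test gave 0.000125 and edgeR with no filter on low counts gave 0.0455, so these settings called it. They also called more of all tested genes, 0.991% and 0.229%, against 0.0735% in the main fit. Leaving out each mouse in turn moved its log2 ratio only between -2.37 and -1.79. Adding a choroid plexus score to the fit gave -1.89 (edgeR adjusted p = 0.263).

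The rest of the neutrophil-attracting axis was near the limit of detection. Cxcl1 gave counts of 3, 7 and 15 for RC against 3, 18 and 9 for RN, so the groups overlapped. Cxcl2 and Cxcl3 had at most 2 counts in a mouse, and the receptors Cxcr2 and Cxcr1 at most 9 and 1. Cxcr2 itself was counted 9, 4 and 8 times per RC mouse against 4, 3 and 7 per RN mouse. The 11 neutrophil genes on the marker list did not move as one. The granule genes Ngp, Ltf, Camp and S100a9 were lowest in RN replicate 3, at 0.503, 0.28, 0 and 0.336 CPM. The other RN mice were not low. Camp lay at 1.73 and 1.02 CPM in RN replicates 1 and 2, above all RC mice (0.449 to 0.837). In those RN mice Ngp, Ltf and S100a9 lay at 2.46 to 6.48 CPM, against 1.57 to 6.99 in RC. Log2 ratios of these granule genes lay between -0.35 and 0.64. Mmp8, a neutrophil collagenase, gave counts of 7, 6 and 15 for RC against 32, 70 and 82 for RN, a log2 ratio of 2.65 (edgeR adjusted p = 0.0967). Csf3r, the receptor for granulocyte colony-stimulating factor, lay at 15.2 to 18.5 CPM for RC and 15.5 to 19.6 for RN. The part of neutrophils in the Cxcl5 value was not tested.

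The interferon-inducible ligands and their receptor were high in 1 control mouse. Cxcl9 (ENSMUSG00000029417) gave counts of 472, 55 and 60 across RC1, RC2 and RC3 against 47, 63 and 50 for RN. RC replicate 1 was 7.87 times the mean of the other RC mice, and those lay close to the RN mice. The log2 ratio of -1.89 (SE 0.777, edgeR adjusted p = 0.394) was -0.17 without RC replicate 1. Cxcl10 (ENSMUSG00000034855) gave counts of 377, 180 and 148 for RC against 106, 218 and 162 for RN, a log2 ratio of -0.58 (SE 0.359, edgeR adjusted p = 0.615) that was -0.0926 without RC replicate 1. Their receptor Cxcr3 (ENSMUSG00000050232), found on activated T cells and NK cells, gave counts of 76, 24 and 16 for RC against 13, 19 and 12 for RN. Its log2 ratio was -1.42 (SE 0.591, edgeR adjusted p = 0.399), and -0.51 without RC replicate 1. Its adjusted p was 0.395 when the replicate number entered the edgeR fit as a block.

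Ccl5, a product of T cells and NK cells, was counted 154, 23 and 41 times per RC mouse against 42, 57 and 40 per RN mouse. Its log2 ratio of -0.67 (SE 0.606, edgeR adjusted p = 0.760) was 0.48 without RC replicate 1, so 1 mouse set its sign. Ccr2, the receptor of inflammatory monocytes, gave counts of 107, 34 and 27 for RC against 18, 55 and 39 for RN, and its log2 ratio went from -0.63 to 0.21 without that mouse. Ccr7, which guides dendritic cells and naive T cells, had counts of 45, 8 and 9 for RC against 11 to 15 for RN, and went from -0.65 to 0.58. Cxcr6, a receptor of tissue T cells, had counts of 64, 22 and 29 for RC against 16 to 27 for RN, and its log2 ratio moved from -0.79 to -0.23. Xcr1, a receptor of cross-presenting dendritic cells, was too low for the test and had 26 counts in RC replicate 1 and 1 to 7 in the other mice. In all, 6 of the 33 tested members changed sign without RC replicate 1. Besides Ccl5, Ccr2 and Ccr7 these were Ccl2 (-0.20 to 0.16), Cx3cl1 (0.0386 to -0.088) and Ackr3 (0.0792 to -0.0308). Ccl2, Cx3cl1 and Ackr3 were not among the 11 members at least 2-fold above the other RC mice there.

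**Figure D3:**
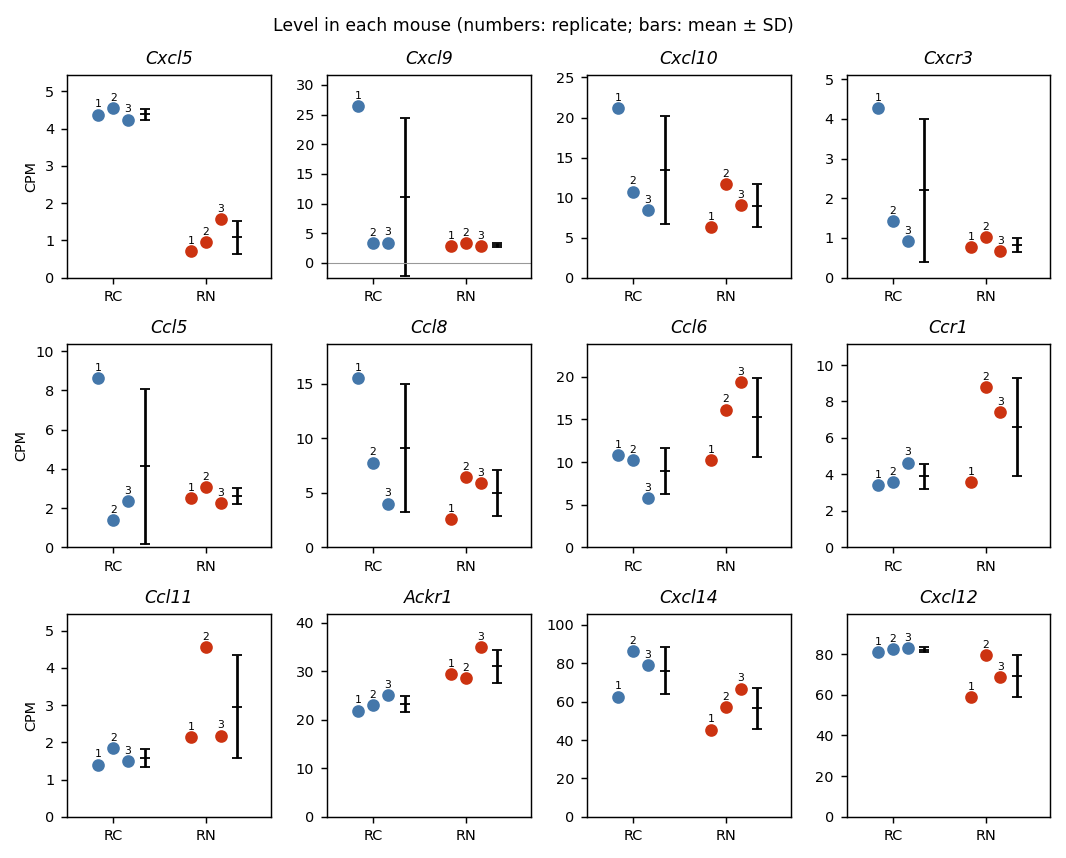
CPM of 12 chemokine genes in each mouse (points numbered by replicate, RC blue and RN red) with the mean ± SD of each group (bars, n = 3), on linear axes; the SD of Cxcl9 in RC exceeds its mean. RC replicate 1 lies above the other 5 mice for Cxcl9, Cxcl10, Cxcr3, Ccl5 and Ccl8, whereas Cxcl5 separates the groups in every mouse.

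The monocyte-attracting ligands did not move together. Ccl8 gave counts of 277, 130 and 70 for RC against 43, 121 and 105 for RN, a log2 ratio of -0.87 (SE 0.502, edgeR adjusted p = 0.577) that was -0.24 without RC replicate 1. Ccl2, the main ligand of Ccr2, was counted 75, 38 and 40 times per RC mouse against 27, 53 and 57 per RN mouse, and its log2 ratio of -0.20 (95% interval -1.05 to 0.65) was 0.16 without that mouse. Ccl12 lay at -0.32 and Ccl7 at 0.85 on the log2 scale, with intervals that held 0. All 4 ligands overlapped between the groups.

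Of the 5 inflammatory CC ligands none passed the test, and 4 had log2 ratios above 0. Ccl6 (ENSMUSG00000018927), a myeloid ligand of mouse Ccr1, gave counts of 192, 171 and 101 for RC against 172, 302 and 346 for RN. RN replicates 2 and 3 were above all RC mice, and RN replicate 1 was not. Its log2 ratio was 0.77 (SE 0.296, edgeR adjusted p = 0.351, unadjusted p = 0.0304), and 0.54 to 0.99 with each mouse left out in turn. Ccr1 (ENSMUSG00000025804), on monocytes and macrophages, showed the same mice apart, with counts of 61, 60 and 81 for RC against 60, 164 and 133 for RN. The log2 ratio of Ccr1 was 0.77 (SE 0.333, edgeR adjusted p = 0.424). Ccl9, another ligand of mouse Ccr1, gave counts of 46, 43 and 33 for RC against 37, 69 and 77 for RN, so RN replicate 1 again lay among the RC mice.

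Ccl3 and Ccl4, which microglia and macrophages release on activation, followed another order. Ccl3 was counted 62, 18 and 25 times per RC mouse against 87, 39 and 54 per RN mouse, and Ccl4 had 25, 3 and 19 in RC and 32, 14 and 27 in RN, highest in both cases in RN replicate 1. The log2 ratio of Ccl3 was 0.77 (SE 0.504, edgeR adjusted p = 0.634) and 1.44 without RC replicate 1, and that of Ccl4 was 0.62 (SE 0.645) and 1.11 without it. RC replicate 1 was the highest RC mouse for both, so leaving it out was bound to raise these ratios. With each mouse left out in turn, Ccl3 ran from 0.35 to 1.44 and Ccl4 from 0.149 to 1.11. Beside these genes, the 14 monocyte and macrophage genes went both ways, with a median log2 ratio of 0.0476. The macrophage genes Gpnmb (1.39, edgeR adjusted p = 0.063) and Cd68 (0.60, edgeR adjusted p = 0.208) lay above 0 on the log2 scale. F13a1 (-0.74), Ly6c2 (-0.52) and Chil3 (-0.90), genes of monocytes, lay below 0, at edgeR adjusted p = 0.352, 0.739 and 0.686. The rest of the list did not split by cell type. Fn1 (-0.47), Plac8 (-0.18) and Mrc1 (-0.082) also lay below 0. Arg1 (0.86), Clec4n (0.66), Lyve1 (0.56), Lyz2 (0.20), Ms4a7 (0.088) and Cd163 (0.0071) lay above it. Ly6c2 gave counts of 87, 29 and 34 for RC against 26, 43 and 38 for RN, highest in RC replicate 1. Chil3 gave 19, 10 and 32 against 18, 12 and 3. The summed level of 12 microglial genes, including Tmem119 and P2ry12, was 1186 to 1346 CPM for RC, and 1086, 1475 and 1469 across RN1, RN2 and RN3. The part of cell numbers in the ligand values was not tested.

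Ackr1 (ENSMUSG00000037872), a chemokine-binding receptor of venules and red cells, separated the groups. It gave counts of 390, 384 and 438 for RC against 495, 535 and 624 for RN, each RN mouse above each RC mouse. It averaged 23.3 ± 1.64 CPM for RC and 31.0 ± 3.41 for RN (mean ± SD over 3 mice), a log2 ratio of 0.41 with a 95% interval of 0.13 to 0.69. The unadjusted p was 0.00883 and the adjusted p 0.213 in edgeR's quasi-likelihood test, and its log2 ratio stayed between 0.32 and 0.47 with each mouse left out in turn. With the choroid plexus score in the fit it was 0.32 (edgeR adjusted p = 0.661). Many endothelial genes lay on the opposite side: the median log2 ratio of 11 was -0.40, and Pecam1 lay at -0.70 (edgeR adjusted p = 0.122). At an unadjusted p under 0.05 in edgeR 6 were lower and 0 higher, beside 6.33% and 5.44% of all tested genes. The endothelial genes Flt1 (-0.017) and Tek (0.010) lay near 0. The 8 pericyte and smooth muscle genes had a median of -0.0093, with 0 lower and 0 higher at that threshold. The summed level of 5 red cell genes was 50.5 to 170.5 CPM in RC and 30.8 to 94.96 in RN. Ackr2, a scavenger of inflammatory CC chemokines, was counted 12, 16 and 16 times per RC mouse against 6, 4 and 18 per RN mouse. Ackr4, which scavenges Ccl19 and Ccl21, had 2 to 24 counts and was not tested for its low counts.

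Ccl11 (ENSMUSG00000020676), an eosinophil-attracting ligand of Ccr3, gave counts of 25, 31 and 26 for RC against 36, 85 and 39 for RN. The groups did not overlap, but RN replicate 2 stood well above the other RN mice. The log2 ratio of Ccl11 was 0.90 (SE 0.375, edgeR adjusted p = 0.397) and 0.44 without RN replicate 2. Its receptor Ccr3 had at most 4 counts in a mouse, and Ccl24 likewise. The summed level of 9 fibroblast and meningeal genes was 1268, 764.3 and 547.8 CPM across RC1, RC2 and RC3, and 1636, 1651 and 461.9 across the RN mice in order. Most of that sum was Ptgds in every mouse, at 1428, 1312 and 280.3 CPM across the RN mice. Col1a1, Col1a2, Col3a1, Dcn, Lum and Mgp were highest in RN replicate 2, as Ccl11 was. Ptgds, Pdgfra and Slc6a13 were highest in RN replicate 1. The part of these cells in the Ccl11 value was not tested.

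Fractalkine and Cxcl14 had the highest levels among the ligands, and Cx3cr1 among the receptors. In RPKM (CPM per kilobase of transcript, with lengths of GENCODE M21) the ligands were led by Cx3cl1 at 91.1 ± 16.5, Cxcl14 at 36.3 ± 8.13, Cxcl16 at 16.01 ± 3.76, Ccl8 at 13.8 ± 8.91 and Cxcl12 at 9.25 ± 1.19 (SD, n = 6 mice). The mean of Ccl8 was 17.8 RPKM for RC and 9.72 for RN, and Ccl12 was level with Cxcl12 at 9.17 RPKM. Among the receptors Cx3cr1 stood at 30.6 ± 4.76, Ackr1 at 19.3 ± 3.44, Cxcr4 at 16.6 ± 3.37 and Ackr3 at 4.25 ± 0.630 RPKM. By these SDs the levels of Cxcl16 and Ccl8, and those of Ackr1 and Cxcr4, were not separated.

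**Figure D4:**
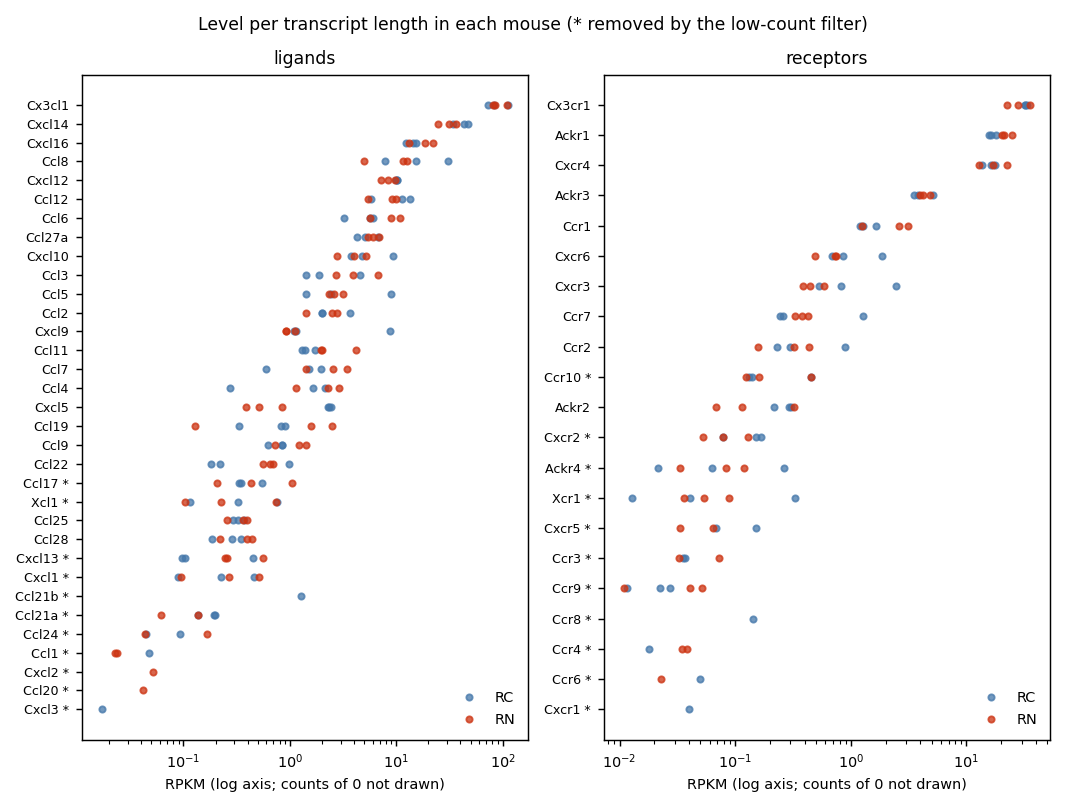
Level of the chemokine ligands (left) and of 21 of the 22 receptors (right) in each mouse, in RPKM on a log axis, RC blue and RN red, ordered by the mean of the 6 mice; an asterisk marks members removed by the filter on low counts, and counts of 0 are not drawn. Cx3cl1 and Cx3cr1 lead their panels, and Cxcl5 is the ligand whose colours separate by the widest gap.

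Cxcl14 (ENSMUSG00000021508), a ligand with a disputed receptor that is expressed by some interneurons and epithelia, gave counts of 1117, 1446 and 1381 for RC against 764, 1066 and 1195 for RN. RC replicate 1 and RN replicate 3 overlapped. It averaged 76.1 ± 12.2 CPM for RC and 56.4 ± 10.7 for RN (mean ± SD over 3 mice), a log2 ratio of -0.43 (SE 0.165, edgeR adjusted p = 0.352, unadjusted p = 0.0308). It stayed below 0 with each mouse left out in turn, between -0.57 and -0.30.

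Cxcl12 (ENSMUSG00000061353), made by vessels, meninges and some neurons, was counted 1443, 1381 and 1450 times per RC mouse against 991, 1490 and 1231 per RN mouse. In CPM it was 80.9, 82.5 and 83.1 in RC against 59.0, 79.7 and 68.8 in RN, so the groups did not overlap although RN replicate 2 was close to the RC mice. The log2 ratio was -0.25 with a 95% interval of -0.51 to 0.015 (edgeR adjusted p = 0.458). The point estimates of its receptors lay above 0. Cxcr4 gave counts of 525, 532 and 429 for RC against 392, 755 and 545 for RN, a log2 ratio of 0.14 with a 95% interval of -0.32 to 0.59. Ackr3 gave counts of 208, 287 and 222 for RC against 225, 304 and 254 for RN, a log2 ratio of 0.0792 with a 95% interval of -0.33 to 0.49.

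Cx3cl1 (ENSMUSG00000031778) was counted 5147, 5505 and 7712 times per RC mouse against 5599, 5965 and 7799 per RN mouse. Replicate 3 was the highest of each group, and the log2 ratio of 0.0386 had a 95% interval of -0.37 to 0.45, which leaves changes of up to 1.36-fold within the error. Cx3cr1 (ENSMUSG00000052336) gave counts of 2600, 2398 and 2620 for RC against 1682, 2364 and 2862 for RN. RN replicate 1 was the lowest mouse and RN replicate 3 the highest, with a log2 ratio of -0.18 and a 95% interval of -0.54 to 0.17. Cxcl16, a membrane-bound ligand of Cxcr6 made by macrophages and glia, gave counts of 820, 727 and 647 for RC against 673, 1252 and 1016 for RN. The log2 ratio of Cxcl16 was 0.37 (SE 0.181, edgeR adjusted p = 0.488), with RN replicate 1 among the RC mice as for Ccl6 and Ccr1.

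Among the lymphoid and barrier ligands, 5 of 10 were tested and all 5 log2 ratios were above 0 without a call. Ccl19, a ligand of Ccr7, was counted 14, 12 and 5 times per RC mouse against 23, 40 and 2 per RN mouse, and its log2 ratio of 1.01 (SE 0.823, edgeR adjusted p = 0.727) spanned 0.29 to 1.55 with each mouse left out. RN replicate 3 was the lowest of all mice for it. Ccl22, a ligand of Ccr4, gave counts of 41, 7 and 9 for RC against 22, 30 and 27 for RN. Over all mice its log2 ratio was 0.44, and it was 1.64 without RC replicate 1 (edgeR adjusted p = 0.192, unadjusted p = 0.00667). That mouse was 4.93 times the mean of the other RC mice for Ccl22. Leaving it out was therefore bound to raise the ratio, and that p-value is no independent test. Ccl25, Ccl27a and Ccl28 lay between 0.0509 and 0.37 on the log2 scale. Ccl27a and the Ccl21 genes have near-identical copies between which reads could have been split: Ccl21b had 9 counts in RC replicate 3 and 0 in the other 5 mice, and Ccl21a 0 to 3 counts.

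The filter on low counts removed 11 ligands and 11 receptors. Of these, 5 ligands (Cxcl2 and Cxcl3 with at most 2 counts, and Ccl1, Ccl20 and Ccl21a) and 4 receptors (Cxcr1, Ccr4, Ccr6 and Ccr8) had at most 3 counts in every mouse, so no difference was detectable at this depth. Xcl1, the ligand of Xcr1, had 1 to 7 counts, Cxcl13, the B cell attractant, 2 to 12, and its receptor Cxcr5 0 to 9. Ccl17 had 2 to 9 counts, Ccr9 2 to 10 and Ccr10 4 to 14.

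Other genes of the pathway, from a list of 45 that holds relatives under other names, G proteins, arrestins, kinases and regulators, gave 43 tested genes and no call in edgeR. At an unadjusted p under 0.05, 5 were higher (Gpr35, Fgr, Rgs2, Pik3r5 and Cmklr1) and 3 lower (Gnai2, Gnai3 and Rgs16) in RN, 8 of 43 beside the 11.8% of all tested genes. Gpr35, a G protein-coupled receptor of leukocytes and gut, gave counts of 79, 61 and 67 for RC against 110, 234 and 164 for RN. Its log2 ratio was 1.24 (SE 0.257, edgeR adjusted p = 0.124), and DESeq2 called it. Fgr, a Src-family kinase of myeloid cells, was counted 58, 53 and 50 times per RC mouse against 81, 131 and 116 per RN mouse, a log2 ratio of 0.98 (SE 0.221, edgeR adjusted p = 0.135), again without overlap. Rgs16, which shortens G protein signals and is also on the list of thalamic genes, gave counts of 1253, 779 and 2091 for RC against 787, 811 and 672 for RN, a log2 ratio of -0.89 (edgeR adjusted p = 0.276). Among the relatives under other names, Pf4 and Ccrl2 had log2 ratios of -0.17 and 0.33 with overlapping groups, Gpr182 lay at 0.15, and Ppbp had at most 8 counts.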

How the data were processed

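Thalamus RNA of 3 RC and 3 RN mice was prepared with the NEBNext Ultra RNA kit and sequenced on an Illumina NovaSeq instrument. The authors deposited whole-number read counts for each gene and mouse, which had not been normalized. The submitters' processing notes name fastp 0.18.0, FastQC, HISAT2 2.2.4, RSEM 1.2.19 and the build GRCm39. The annotation, the use of strand and the handling of reads shared between genes are not given in the sources used here.

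From the counts, genes were filtered with filterByExpr (minimum count 10), normalized by TMM and tested on group alone with the quasi-likelihood test of edgeR 4.0.16 in R 4.3.3, with Benjamini-Hochberg adjustment over 14956 genes. Fitted log2 fold changes used a prior count of 0.125 and log2 CPM a prior count of 2. Standard errors were the log2 fold change over the square root of its F statistic, and 95% intervals came from them. CPM used TMM library sizes. Transcript lengths were exon unions of GENCODE M21, a GRCm38 annotation, which held all 55 members. No library repeated another: chi-square over its degrees of freedom lay between 16.3 and 44.3 for all pairs.

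RC and RN share replicate numbers, and same-numbered mice deviated together from their group means. The correlations over genes were r = 0.173 (replicate 1), 0.12 (replicate 2) and 0.209 (replicate 3). These values do not settle whether the numbers pair the mice, and the main test used group alone. RC replicate 1 and RN replicate 2 also correlated, at 0.156. Alternatives were DESeq2 1.42.0 (Wald test), its size factors in edgeR, other filters, edgeR without its legacy method, the replicate block, a choroid plexus score added to the model, no fold threshold and each mouse left out. edgeR's robust option was added after the data were seen. The procedure was tested on simulated data.

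The members, lists and roles were chosen with earlier results of these data known. Values are given for members with an unadjusted p under 0.05, a fold change of at least 2, no overlap between groups or 1 of the 5 highest levels per length of their side, and for fixed ligand and receptor pairs. Ccl3, Ccl4, Ccl7, Ccl9, Ccl12, Ccl22, Ccr7, Cxcr6, Ackr2 and the members removed by the filter were described after their values were seen. The values of 1 tested receptor are not reported here, and it remains in the counts and medians over members.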

Additional observations from a re-analysis of the deposited data

How the results depend on the processing

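No receptor was called under any setting run, and no ligand was called higher. Cxcl5 was the only member called, as 1 lower ligand with DESeq2's Wald test and with no filter on low counts, and dropping the fold threshold added none. DESeq2 called 0.991% of all its tested genes and the fit without a filter 0.229%, against 0.0735% in the main fit. Of the other pathway genes, DESeq2 called 1 higher (Gpr35) and the choroid plexus covariate 1 lower (Rgs16). At an unadjusted p under 0.05, that covariate left 1 higher and 1 lower ligand, 0 receptors in either direction and 1 lower pathway gene. The DESeq2 size factors left 1 higher receptor, and edgeR without its legacy method 0 lower receptors. The replicate block gave 0 lower receptors, and it changed no call. With at least 10 counts in every mouse, which kept fewer members, the median was -0.0807 for the ligands and 0.0789 for the receptors. Without a filter 1 lower receptor was counted as without overlap. By the counts themselves, however, no receptor had all RN mice below all RC mice, and DESeq2's normalized counts gave 0 such receptors. Overlap could not be recounted for fits that changed only the model.

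With each mouse left out in turn, the ligands at an unadjusted p under 0.05 numbered 0 to 4 higher and 1 to 4 lower, the receptors 1 to 2 higher and 0 to 2 lower, and the pathway genes 3 to 9 higher and 0 to 5 lower, while 3.7% to 6.72% of all tested genes were higher and 4.91% to 6.81% lower. Ligands without overlap numbered 1 to 5 higher and 2 to 4 lower, and receptors 1 to 2 higher and 0 to 2 lower. The receptor median ran from -0.370 to 0.156, highest without RC replicate 1. Cxcl5 was lower at an unadjusted p under 0.05 in every setting, and Ackr1 higher in every setting but the choroid plexus covariate.

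Signs turned for some members. With the choroid plexus covariate the log2 fold change was -0.256 for Cx3cl1, -0.304 for Ccl4, 0.181 for Ccl8, 0.0244 for Ccl2 and 0.103 for Ccr2, and the cause was not tested. The score was 1.77, 3.12 and -0.769 across RC1, RC2 and RC3 and -1.59, -1.36 and -1.17 across RN1, RN2 and RN3. It thus went partly with the group, and this fit can separate the score from the group only in part. With each mouse left out, Cx3cl1 ran from -0.115 to 0.232, Ccl5 from -1.08 to 0.476, Ccl2 from -0.392 to 0.158, Cxcr4 from -0.0938 to 0.309, Ackr3 from -0.0308 to 0.262 and Ccr2 from -0.979 to 0.211. The positive values of Ccl5 and Ccr2 came without RC replicate 1. Many members had under 100 counts in a mouse, and their intervals span more than a 2-fold change.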
